A study of Homo sapiens with 32 samples.

Results

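Nascent transcription of 9 interferon-stimulated genes was followed through the exit from mitosis in HUH7, an established human hepatoma line. The genes were ISG15, IFIT1, IFIT2, IFIT3, IFI6, MX1, OAS1, IRF1 and IRF7, taken by their symbols from a table of 24242 genes, and all 9 were present. All 9 also passed a filter of at least 1 FPKM (fragments scaled to gene span and library depth) in at least 3 groups, which 22940 genes passed. New RNA had been labelled with 5-ethynyl uridine (EU, a uridine analogue that can be tagged with biotin and captured) at 0.5 mM for 40 minutes and sequenced. Cells of the 6 release groups had been held in 2 mM thymidine for 24 hours, freed for 2 hours, blocked in mitosis with nocodazole at 0.06 ug/mL for 16 hours, shaken off, washed and replated for 0, 40, 80, 105, 165 or 300 minutes. The seventh group was an asynchronous culture of the same line without that block. Every release group had passed through both drugs and the shake-off, so the block and the stage of the cell cycle cannot be told apart when a release group is set against the asynchronous culture. The sources used here do not say if a stated time marks the start or the end of the pulse.

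By the labels, each of these 7 groups has 3 samples, but the deposited table holds 1 value per gene and group. No replicate spread, test or p-value therefore stands behind any difference below, and a difference is described by its size alone. FPKM is a share of the captured RNA, so it does not give the absolute output of a gene, and fewer transcribing cells and less new RNA per cell cannot be told apart. Folds were computed as differences of log2(FPKM + 1), so those of genes at low FPKM come out too small, and a gene was counted as higher or lower when it was at least 2-fold apart on that scale.

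Interferons are secreted proteins that cells make on sensing foreign nucleic acid. Type I and type III interferons bind receptors coupled to the kinases JAK1 and TYK2, which activate transcription factors of the STAT family, and these join IRF9 in the complex ISGF3 that binds the interferon-stimulated response element (ISRE). Interferon gamma signals through STAT dimers that bind the gamma-activated site (GAS). The genes studied here are among the classical targets: ISG15 is a ubiquitin-like modifier, the IFIT proteins bind foreign RNA, MX1 is an antiviral GTPase, OAS1 makes short oligoadenylates on sensing double-stranded RNA, IFI6 is a small membrane protein, and IRF1 and IRF7 are transcription factors of the pathway. Many are also transcribed at a low level without added interferon, and the labels name no interferon treatment.

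The 2 motifs that define this response were looked for in the promoters of these genes, from 250 bases before to 50 bases after each annotated start (RefSeq, GRCh38.p14). Of the 9 genes, 7 had entries, with 10 promoters among them, and IFIT2 and IRF7 had none. The ISRE core, searched on both strands as GAAA, any 2 bases and GAAA, was found in 5 of the 7 genes (ISG15, IFIT1, IFIT3, IFI6 and MX1) and in 7 of the 10 promoters, against 3.57% of 35116 promoters of the same length. The GAS core, searched as TTCNNNGAA on both strands, was found in 3 genes (IRF1, OAS1 and MX1) and 3 of the 10 promoters, against 7.66% of those promoters. MX1 also has an ISRE core just after its most upstream start. The second ISRE core and the GAS core of MX1 lie in the most downstream of its promoters, where they overlap by a few letters. The stretches below show the 160 bases before the start, 5′ to 3′ on the gene's strand, for the genes whose matches fall wholly in that window. Matches are in capitals, and a match that begins with TTTC lies on the opposite strand.
ISG15, chr1:1013337-1013496, plus strand: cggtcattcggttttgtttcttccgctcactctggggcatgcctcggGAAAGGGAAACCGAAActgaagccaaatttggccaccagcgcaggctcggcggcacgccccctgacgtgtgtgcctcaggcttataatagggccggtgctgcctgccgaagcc
IFIT1, chr10:89392463-89392622, plus strand: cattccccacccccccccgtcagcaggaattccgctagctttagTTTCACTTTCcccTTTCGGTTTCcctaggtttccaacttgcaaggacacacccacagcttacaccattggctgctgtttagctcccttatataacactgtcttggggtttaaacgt
IFIT3 upstream start, chr10:89327837-89327996, plus strand: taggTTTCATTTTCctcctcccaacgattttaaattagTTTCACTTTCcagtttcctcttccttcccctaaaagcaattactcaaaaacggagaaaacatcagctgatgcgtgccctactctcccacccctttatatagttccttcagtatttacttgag
IFIT3 downstream start, chr10:89332369-89332528, plus strand: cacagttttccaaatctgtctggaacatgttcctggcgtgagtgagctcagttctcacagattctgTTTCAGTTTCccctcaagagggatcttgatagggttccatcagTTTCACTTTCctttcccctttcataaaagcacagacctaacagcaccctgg
IFI6, chr1:27672193-27672352, minus strand: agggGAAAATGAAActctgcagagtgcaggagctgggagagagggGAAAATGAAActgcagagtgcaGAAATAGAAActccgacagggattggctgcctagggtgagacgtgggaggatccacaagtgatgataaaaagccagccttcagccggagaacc
IRF1, chr5:132490774-132490933, minus strand: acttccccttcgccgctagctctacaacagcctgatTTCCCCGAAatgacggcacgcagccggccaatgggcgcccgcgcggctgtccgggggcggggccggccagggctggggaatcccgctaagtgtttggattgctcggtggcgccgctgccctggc
The ISG15 stretch holds 2 ISRE cores that share bases, at -113 to -104 and -107 to -98 from the start. IFIT1 and each IFIT3 promoter hold 2 cores, and IFI6 holds 3. IRF1 has no ISRE core in its window and 1 GAS core at -124 to -116. A match is a description of letters and does not show that a factor was bound.

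ISG15 and IRF1 were above the other members in every group. ISG15 stood at 698 FPKM at 0 minutes, 937 at 40, 888 at 80, 1013 at 105, 529.6 at 165 and 287 at 300 minutes, and at 44.5 in the asynchronous culture. IRF1 stood at 576, 818, 1200.1, 1075, 660.2 and 276 FPKM at the same times, and at 163 in the asynchronous culture. Every release value of both genes lay above their asynchronous value. ISG15 was above IRF1 at 0, 40 and 300 minutes and below it at 80, 105 and 165 minutes and in the asynchronous culture, but at 300 minutes the gap was under the counting error of ISG15 (9.04%). The 6 members IFIT1, IFIT2, IFIT3, IFI6, MX1 and OAS1 lay between 5.75 and 38.3 FPKM in all release groups. IRF7 lay at 0.647 to 1.41 FPKM in 5 release groups and at 6.30 at 105 minutes.

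**Figure D1:**
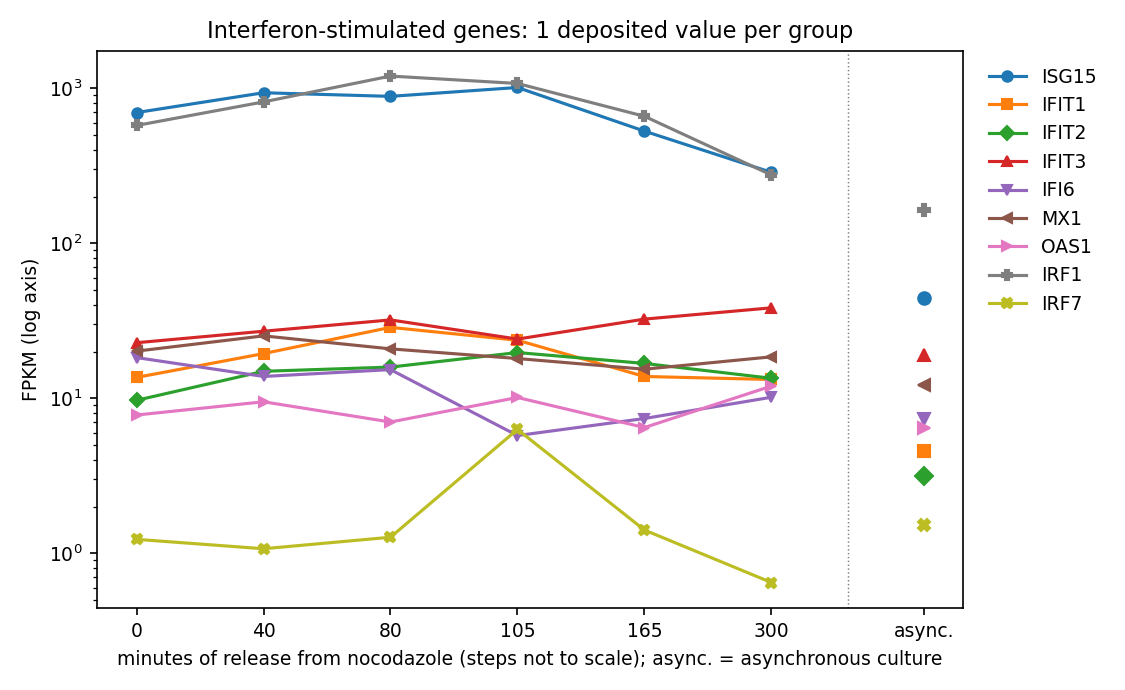
FPKM (log axis) of the 9 genes by minutes of release, with the asynchronous culture at the right; each point is the authors' 1 value per group and carries no error. ISG15 and IRF1 lie at 276 FPKM or more in every release group, the 6 middle genes between 5.75 and 38.3, and IRF7 peaks at 6.30 at 105 minutes.

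The depth behind these values could be read from the table only in part. Among low genes of 0.2 to 3 kb, FPKM multiplied by gene span piled up at whole multiples of a step: at 0 minutes 145 of 399 such genes were at 1 step, 43 at 2 steps and at most 9 at points in between. If 1 step is 1 fragment, the asynchronous column was 1.87 times as deep as the 0 minute column. ISG15, whose span is 1044 bases, then rested on 179 steps at 0 minutes and 21.4 in asynchronous cells, and IRF1 on 1303 and 688. IFIT1 rested on 46.8 and 29.1, IFIT2 on 17.5 and 10.7, IFI6 on 27.6 and 20.8, and OAS1 on 23.7 and 35.9 steps. IRF7 rested on 1 step at 0 minutes in its shorter span and on at most about 3 in any column except 105 minutes. A counting error below is the spread that the square root of the steps gives, in percent of a value or on the log2 scale for a difference. These errors cover counting only, and without molecular identifiers a fragment need not be a separate molecule.

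ISG15, which is conjugated to proteins in the manner of ubiquitin, had the largest differences from the asynchronous culture of the 9. It was higher by 4.48 on the log2 scale at 105 minutes (22.3-fold, counting error 0.32) and by 2.66 at 300 minutes (6.33-fold). Its value at 300 minutes was 2.43-fold lower than at 0 minutes. Its asynchronous value, resting on 21.4 steps, carries the main part of the counting error. Of the 4 enzymes that attach or remove ISG15 (UBA7, UBE2L6, HERC5 and USP18), 0 were at least 2-fold apart at 0 minutes against the asynchronous culture (14.1% of all genes higher, 19% lower). At 40, 80, 105 and 300 minutes 1 of the 4 was higher (14.2%, 19.4%, 16.7% and 9.84% of all genes), which was HERC5, the ligase, at 80 minutes (2.04-fold) and UBA7, the activating enzyme, at the other times (3.02-fold at 300 minutes). USP18, which removes ISG15 and dampens receptor signalling, stood at 26.8 FPKM at 0 minutes, 55.5 at 80 and 40.7 at 300 minutes, against 46.0 in the asynchronous culture.

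IFIT1 binds RNA that lacks the cap marks of the host, and the IFIT genes lie in 1 cluster. IFIT1 stood at 13.6 FPKM at 0 minutes, 19.4 at 40, 28.7 at 80, 23.7 at 105, 13.8 at 165 and 13.2 at 300 minutes, against 4.54 in the asynchronous culture. IFIT2 stood at 9.70, 14.9, 15.9, 19.7, 16.8 and 13.5 FPKM, against 3.17. IFIT1 and IFIT2 were thus above the asynchronous value in each release group, by 1.36 to 2.42 and 1.36 to 2.31 on the log2 scale. IFIT3 stood at 22.8, 27.1, 32.0, 24.1, 32.4 and 38.3 FPKM, against 19.1. IFIT3 was closer to its asynchronous value, 0.25 higher on the log2 scale at 0 minutes and 0.97 at 300 minutes, and its highest release value was the last. The highest value was at 80 minutes for IFIT1, 105 for IFIT2 and 300 for IFIT3. The IFIT2 value at 105 minutes was above those at 80 and 165 minutes by no more than the counting error (0.30 and 0.28 on the log2 scale).

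IFIT3 has 2 annotated starts in the table, and the extra 4590 bases upstream held 36.0 FPKM at 0 minutes and 32.5 in asynchronous cells. The lipid enzyme gene LIPA overlaps the cluster on the opposite strand (GENCODE for the strand) and stood at 13.0 FPKM at 0 minutes, 24.9 at 300 and 18.5 in the asynchronous culture. The sources used here do not say if strand was used in counting, so reads of LIPA could be counted in the IFIT genes. The IFIT genes also resemble each other in sequence, and how shared reads were treated is not given.

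The membrane protein gene IFI6 stood at 18.3 FPKM at 0 minutes, 13.8 at 40, 15.3 at 80, 5.75 at 105, 7.40 at 165 and 10.2 at 300 minutes, against 7.37 in the asynchronous culture. It had its highest release value at 0 minutes and was 2.42-fold lower at 105 than at 80 minutes (counting error 0.47 on the log2 scale). The antiviral GTPase MX1 stood at 20.1, 25.3, 20.8, 18.1, 15.4 and 18.5 FPKM, against 12.1, and was above the asynchronous value in every release group. The longest MX1 transcript adds 5652 bases upstream, and those held 148 FPKM at 0 minutes and 98.8 in the asynchronous culture. The MX1 value thus mixes that segment with 2 shorter spans, of which one stood at 14.0 FPKM at 0 minutes and 7.51 in asynchronous cells and the other at 12.8 and 8.03. The oligoadenylate synthetase gene OAS1 stood at 7.80, 9.49, 7.03, 10.1, 6.47 and 12.0 FPKM, against 6.46, and its differences of 0.00 to 0.80 on the log2 scale had counting errors of 0.30 to 0.38. With quantile normalized columns the OAS1 difference changed sign at 0 minutes, to -0.30, and at 80 minutes, to -0.32.

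Of the regulators, IRF1 activates many of these genes and is itself induced by interferon gamma. It was 7.33-fold higher than the asynchronous culture at 80 minutes and 1.69-fold higher at 300 minutes, with counting errors of 0.06 and 0.07 on the log2 scale. It was 2.39-fold lower at 300 than at 165 minutes. IRF7, the factor that amplifies type I interferon production, stood at 1.23, 1.07, 1.27, 6.30, 1.41 and 0.647 FPKM against 1.52, and was higher only at 105 minutes, by 1.53 on the log2 scale with a counting error of 1.03. That single value rests on about 8 steps, and IRF7 at the other times is near the level of 1 step.

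At 0 minutes against the asynchronous culture, 5 of the 9 genes were at least 2-fold higher (ISG15, IFIT1, IFIT2, IFI6 and IRF1), against 14.1% of all genes tested, and 0 were at least 2-fold lower, against 19% of all genes. At 40 minutes 5 were higher (14.2% of all genes), with MX1 in place of IFI6 and just past the threshold. At 80 minutes 4 were higher (19.4%), at 105 minutes 5 (16.7%, IRF7 among them), at 165 minutes 4 (11.4%) and at 300 minutes 3 (9.84%), and none was lower at these times (10.8% at 80, 9.29% at 105, 8.81% at 165 and 8.57% at 300 minutes, and 15.4% at 40). The members' median was 1.21 on the log2 scale at 0 minutes, and the median of all genes -0.14. The 6 comparisons share the asynchronous column, so they are not independent of each other. The members were chosen with earlier results of these data known, so the shares of all genes are not an independent yardstick for them. With the columns quantile normalized, or with a pseudocount of 5, the count at 0 minutes was 2, ISG15 and IRF1 in both cases. After quantile normalization 12.0% of all genes were at least 2-fold higher there, and with a pseudocount of 5 that share was not computed.

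The background depends on level. Among 7840 genes of 2 to 25 FPKM in the asynchronous culture, a class chosen after the data were seen, 24.9% were at least 2-fold higher at 0 minutes, 22% at 40, 19.7% at 80, 15.5% at 105, 10.3% at 165 and 9.31% at 300 minutes. In that class lie 6 of the 9 genes, of which 3 were higher at 0 minutes (IFIT1, IFIT2 and IFI6). Above the asynchronous value in all 6 release groups were 7 of 9 genes, against 27.2% of all genes. At least 2-fold above in all 6 were 3 of 9 (ISG15, IFIT1 and IFIT2), against 2.73%. In that class the shares were 44.7% and 3.34%, but ISG15, IRF1 and IRF7 lie outside it. Of the 6 members inside it, all but IFI6 were above in all 6 groups, and IFIT1 and IFIT2 at least 2-fold above. The count of 3 was 1 (ISG15) with quantile normalized columns or a pseudocount of 5, where the share of all genes was not computed. Among the 7, OAS1 stood at 6.47 FPKM at 165 minutes against 6.46, a gap far under its counting error. The count of 7 was 6 with quantile normalized columns, and 6 with a filter of 10 FPKM.

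The labelled cell type was checked with 12 hepatocyte markers, all present and none at 0. Their summed FPKM was 2925 to 5810 in the release groups and 19392 in the asynchronous culture. At 0 minutes 11 of the 12 were at least 2-fold lower than in the asynchronous culture and 0 higher, against 19% and 14.1% of all genes. Of 10 immune cell markers, 9 were in the table and none was at 0. They summed to 589.7 to 1396 FPKM in the release groups and 625 in the asynchronous culture. Much of each sum was 1 marker, but not the same one in every group. CD68 stood at 368 FPKM at 0 minutes and 1099 at 80, against 192 in the asynchronous culture. LYZ was the largest in the asynchronous culture, at 364 FPKM, and stood at 73.7 at 0 minutes. At 0 minutes 8 of 9 were above the asynchronous value, a share not computed for all genes. At least 2-fold higher there were 3 of 9 and lower 1, against 14.1% and 19% of all genes. Of 6 stroma or endothelium markers, the sum was 55.4 to 79.8 FPKM in the release groups and 57.1 in the asynchronous culture. Of these 6, 3 were at least 2-fold higher at 0 minutes and 1 lower, beside the same 14.1% and 19%. Whether cells of another type have a part in the values of the 9 genes was not tested.

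**Figure D2:**
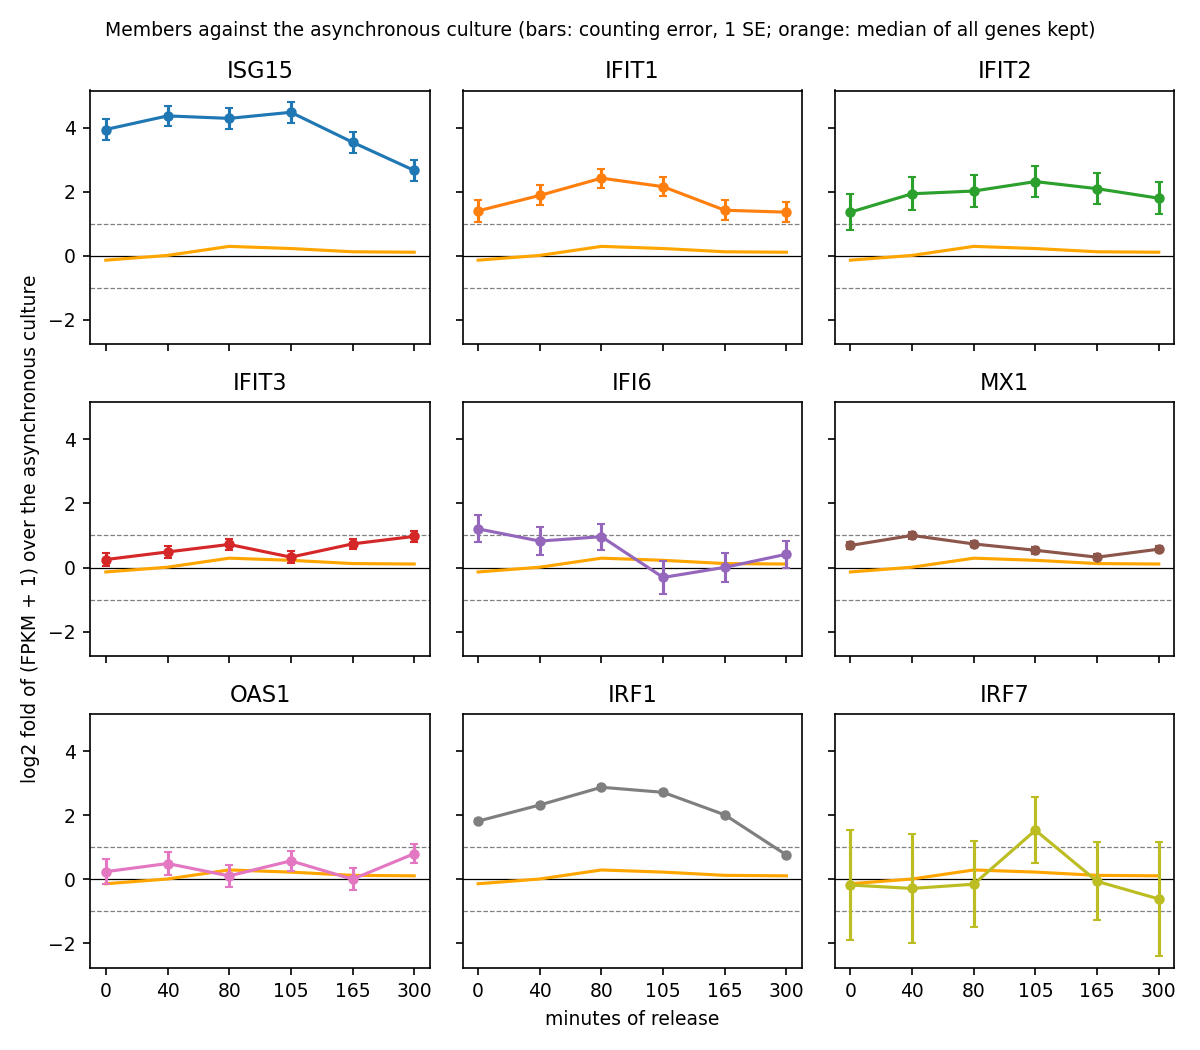
log2 difference on FPKM + 1 of each of the 9 genes between a release time and the asynchronous culture. ISG15 lies highest at every time, with 4.48 at 105 minutes, and IRF7 is above 0 at 105 minutes alone, where its value rests on about 8 steps.

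Within the release series no member was at least 2-fold higher at 300 than at 0 minutes, against 18.9% of all genes, and 2 were lower (ISG15 and IRF1, by 2.43-fold and 2.08-fold), against 8.82%. The other members lay between -0.79 for IFI6 and 0.72 for IFIT3 on the log2 scale. The highest release value fell at 0 minutes for 1 member (16.4% of all genes), at 40 for 1 (13.8%), at 80 for 2 (23.1%), at 105 for 3 (12.5%), at 165 for 0 (13.1%) and at 300 minutes for 2 (21.1%). Between neighbouring times, 0 members were apart from 0 to 40 minutes (3.24% higher and 2.05% lower of all genes) and 0 from 40 to 80 minutes (13.5% and 2.72%). From 80 to 105 minutes IRF7 was higher and IFI6 lower (2.02% and 2.57%), from 105 to 165 minutes IRF7 was lower (5.27% lower, 2.27% higher), and from 165 to 300 minutes IRF1 was lower (4.1% lower, 3.04% higher).

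The pathway around these genes was described from 8 gene lists, some of which share genes. Of 21 interferon genes, 15 were in the table and 7 passed the filter. Of these 7, the type I interferon IFNA5 was at least 2-fold higher at 0 minutes (19.9 against 6.25 FPKM) and IFNW1 was listed at 0 there against 2.91 FPKM. Of all genes 14.1% were higher and 19% lower. At 40 minutes IFNA5 stood at 5.05 FPKM, under its asynchronous value. The steps behind these low values were not computed. Of 6 receptor subunits, IFNGR2 was at least 2-fold higher at 0 minutes than in the asynchronous culture (148 against 64.5 FPKM) and IFNAR2 lower (257 against 608), with 14.1% of all genes higher and 19% lower. Of 6 JAK-STAT genes 0 were apart at 0 minutes, while 2 were higher at 80 minutes (19.4% of all genes), 3 at 105 (16.7%) and 2 at 300 minutes (9.84%). IRF9, the DNA-binding partner in ISGF3, stood at 187 FPKM at 0 minutes, 358 at 300 minutes and 101 in the asynchronous culture. Of 7 other IRF genes, IRF9 included, 0 were apart at 0 minutes, and 3 were higher at 40 minutes (IRF5, IRF8 and IRF9, with 14.2% of all genes) and IRF9 at each later time. At 0 minutes 3 of 15 genes of nucleic acid sensing were higher (STING1, CGAS and TLR3) and 1 lower (MAVS), with 14.1% and 19% of all genes. Of 11 negative regulators, SOCS1 and SOCS3, which block JAK signalling, were higher (79.9 against 22.3 FPKM and 752 against 254), and PIAS1 and PTPN2 were lower. The shares of all genes beside these counts are the same 14.1% and 19%.

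At 300 minutes SOCS1 and SOCS3 were 5.07-fold and 6.26-fold lower than at 0 minutes, in the same direction as ISG15 and IRF1, and IFNAR2 was 2.13-fold higher. Of 73 other interferon-stimulated genes tested, 12 passed 2-fold upward and 3 downward when 0 minutes was set against asynchronous cells, with a median of 0.37 against -0.14 for all genes, of which 14.1% were higher and 19% lower. Those lower were IFITM3, MX2 and ADAR, named after their values were seen. At 80 minutes against the asynchronous culture 21 of the 73 were higher and 2 lower (IFITM1 and IFITM3), with 19.4% and 10.8% of all genes. At 300 minutes 22 were higher and 1 lower (IFITM3), with 9.84% and 8.57% of all genes. The largest at 0 minutes were PSMB8, a subunit of the immunoproteasome (13.6 against 1.86 FPKM), APOBEC3G, a cytidine deaminase (25.4 against 4.95), and HLA-B, a class I heavy chain (12.1 against 2.81). PSMB8 stood at 1.17 FPKM at 40 minutes, under its asynchronous value, and the steps behind its low values were not computed. At 300 against 0 minutes 13 of the 73 were higher and 2 lower (PSMB8 and APOBEC3G), with 18.9% and 8.82% of all genes, so the share higher was near that of all genes. The higher genes were led by IFIT5 (34.0 to 120.2 FPKM) and MX2 (126 to 434). Their paralogs IFIT1 and MX1 lay at -0.04 and -0.12 on the log2 scale in that comparison.

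**Figure D3:**
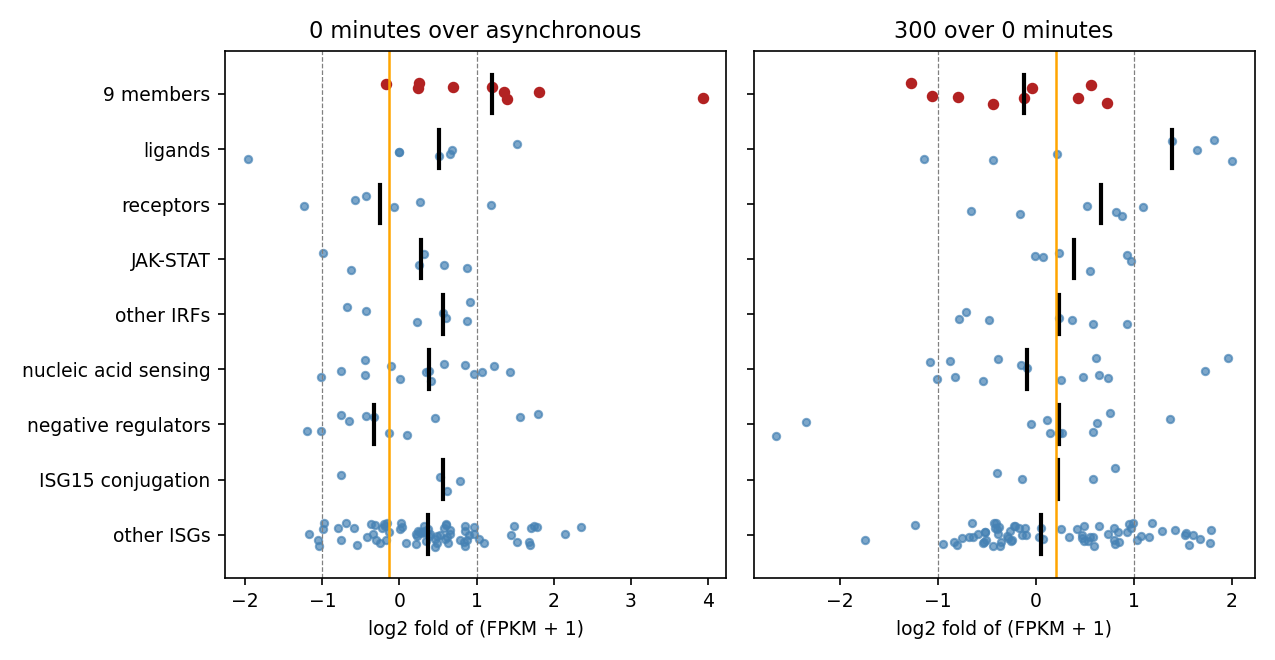
log2 difference on FPKM + 1 of the genes of each list, at 0 minutes against the asynchronous culture and at 300 against 0 minutes; each point is 1 gene. The 9 genes have a median of 1.21 in the first comparison, the 73 other interferon-stimulated genes 0.37, and all genes -0.14. The 9 genes and the lists were chosen with earlier results of these data known.

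The genes beside the members on the chromosome were read from the same table. HES4, the nearest gene before ISG15 in the table, stood at 435 FPKM at 0 minutes, 486 at 40, 431 at 80, 383 at 105, 170 at 165 and 83.3 at 300 minutes. Its asynchronous value was 62.8, so that it was 2.77 higher on the log2 scale at 0 minutes. AGRN, on the other side of ISG15, was 0.24 higher at 0 minutes. IFIT5, beside IFIT1, stood at 34.0 FPKM at 0 minutes against 43.6, and MX2, beside MX1, at 126 against 285, so these neighbours were on the other side of the asynchronous value from IFIT1 and MX1 at that time. TMPRSS2, on the other side of MX1, was 1.17 higher on the log2 scale at 0 minutes, with 2.56 FPKM in the asynchronous culture.

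**Figure D4:**
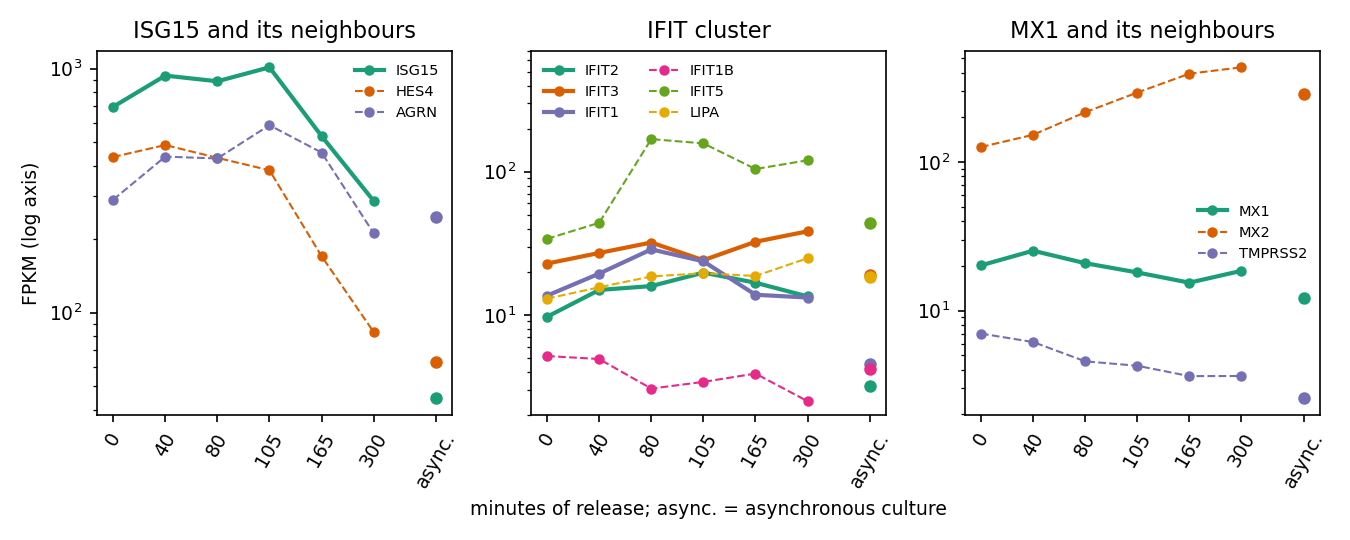
FPKM (log axis) of ISG15, of the IFIT cluster with the overlapping LIPA and of MX1, with their neighbours in the table, by minutes of release and in the asynchronous culture. HES4 lies at 435 FPKM at 0 and at 83.3 FPKM at 300 minutes, and MX2 runs from 126 to 434 FPKM while MX1 lies between 15.4 and 25.3.

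On log2(FPKM + 1) across the 7 groups, the genes most like ISG15 among 11892 genes with at least 10 FPKM in 3 groups and at least a 2-fold range were APOBEC3B (Pearson's r 0.997), KLF4 (0.996) and BMP6 (0.994), and those most like IRF1 were BBC3 (0.999), THOC6 (0.999) and LINC00881 (0.995). Those most like IFIT1 were HES7, IL17RC and BNIP3L, and most like IFIT3 were NCOA7-AS1 (0.982), TRIM25 (0.937) and ERAP2 (0.937). IFIT2 was most like MGAT4B, R3HDM4 and ZNF774, IFI6 like SIGLEC10, VENTX and DEFB123, MX1 like TXLNB, LINC00589 and SPDYE3, and OAS1 like SNAR-C2, TNIP2P1 and BTN1A1 (0.931 to 0.883 for OAS1). Over the same 7 groups ISG15 correlated with IFIT1 at 0.94, IRF1 at 0.93, IFIT2 at 0.90 and IFIT3 at 0.39. These are descriptions over 7 points, and all genes share the same columns.

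The ISRE core was set beside the nascent values of all genes with a promoter in the table. At 0 minutes 12.3% of 657 genes with a match were at least 2-fold higher than the asynchronous culture, against 13% of 15834 genes without. At 80 minutes the shares were 18% and 19.2%, and at 300 minutes 11.9% and 9.08%. For the GAS core, the shares with and without a match were 13.1% of 1498 and 13% of 14993 genes at 0 minutes, 17.1% and 19.3% at 80 minutes, and 11.7% and 8.94% at 300 minutes. Genes with either core were thus about as often 2-fold higher as genes without at 0 and 80 minutes, and the differences in share were not tested.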

How the data were processed

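EU-labelled RNA was captured from HUH7 cells in 7 groups. The authors deposited FPKM per RefSeq transcript, with 1 value per group, per the file headers. Not given in the sources used here are depth per library, counting method, use of strand, background subtraction and pooling. Tools named without a role in the submitters' processing notes are TopHat, Bowtie2 2.2.9, bedtools and bcl2fastq, with the build hg19. Equal values of transcripts with 1 span show that FPKM covered the whole span, introns included.

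Symbols were taken from a RefSeq table of GRCh38.p14, which matched 47127 of 48205 transcripts (97.8%). A gene's value was the mean of its distinct transcript values. A gene was kept if it had 1 FPKM or more in 3 or more groups, and folds used log2(FPKM + 1). The members and gene lists were chosen with earlier results of these data known. The design planned limma on values per library, which 1 value per group did not allow, so no test was run. Unlabelled controls and the spike-in set were not analysed here, and no background level stands beside the values. Named genes are the 9 members, up to 4 genes of each list with the largest fold in each of 2 comparisons, the 3 most like each member with at least 10 FPKM, and chromosomal neighbours. IFNW1, IFITM1, IFITM3, ADAR, B2M, HLA-E, TAP1, NLRC5, IRF5, IRF8, CD68 and LYZ are outside that rule and were named after their values were seen. So were LIPA, for its overlap, and the enzyme and factor values at further times. Alternatives were pseudocounts of 0.1 and 5, no filter, a filter of 10 FPKM, quantile normalization, equal medians and the transcript with the highest mean. The scripts were tested on simulated data (Python 3.11.15, pandas 2.3.3, numpy 2.4.6, scipy 1.17.1, matplotlib 3.10.9). Results of a few genes that the rule names are not reported here.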

Additional observations from a re-analysis of the deposited data

How the results depend on the processing

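The count of members at least 2-fold higher at 0 minutes than in the asynchronous culture was 5 as reported, 2 with a pseudocount of 5 and 2 with quantile normalization. The share of all genes was 14.1% as reported and 12.0% with quantile normalization, and was not computed with a pseudocount of 5. The count at least 2-fold above in all 6 release groups was 3 as reported and 1 under each of those settings. The count at least 2-fold lower at 300 minutes was 0 as reported and 1 (IRF7) with a pseudocount of 0.1. Of 126 recomputed counts and medians 121 were close to the reported value, but close was set loosely. A median could shift by about 2 times the members' median counting error. The members' median at 0 minutes against the asynchronous culture, 1.21 as reported and 0.78 with quantile normalization, was called close. So was a count of 5 that became 4. Several counts were 0 as reported and stayed at 0 in nearly all settings, so 121 says little about stability. Of 244 recomputed member folds 12 moved by at least about 2 times the counting error, and 0 of those called changed direction. Smaller shifts are outside the 12. For IFIT1 at 0 minutes against the asynchronous culture the fold was 1.40 as reported and 0.92 with quantile normalization, with a counting error of 0.34. Small differences changed sign with quantile normalization: OAS1 at 0 (-0.30) and 80 minutes (-0.32) against the asynchronous culture, IFIT1 (0.26) and MX1 (0.05) at 300 against 0 minutes, and the members' median in the latter (0.05, from -0.12). The median of all genes at 0 minutes against the asynchronous culture was -0.14 as deposited and 0.01 after quantile normalization. Of the genes at least 2-fold apart in that comparison, 42.7% were higher as deposited, 49.9% after quantile normalization and 61.2% with equal medians, and for 300 against 0 minutes the shares were 68.2%, 50.3% and 44.4%. No paired analysis was possible because the table holds 1 value per group and its columns carry no replicate letter. Leaving out each replicate was not run for the same reason. IRF7 is limited by depth, with about 1 step in most groups.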

Other observations

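Values of 4 further genes of the list of other interferon-stimulated genes are given, picked after their values were seen and without a test. B2M, the light chain of class I molecules, stood at 1556 FPKM at 0 minutes, 2145 at 40, 2086 at 80, 2121 at 105, 1650.5 at 165 and 1269 at 300 minutes, against 557 in the asynchronous culture. HLA-E stood at 146 FPKM at 0 minutes and 135 at 300 minutes, against 44.6. TAP1, a subunit of the peptide transporter, stood at 16.3 FPKM at 0 minutes and 32.6 at 80 minutes, against 4.29. HLA-E shares sequence with related genes, so its value is uncertain where reads could be split. NLRC5, a regulator of class I genes, stood at 15.1 FPKM at 0 minutes and 8.54 at 300 minutes, against 9.57.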
